A study of Drosophila melanogaster with 3 samples.

Results

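The mitochondrial ribosomal protein genes of Drosophila melanogaster were taken as all protein-coding genes of the Ensembl annotation whose symbol starts with mRpL or mRpS, symbols that name proteins of the large and of the small subunit. The rule gave 73 genes, 47 mRpL and 26 mRpS, of 13945 protein-coding genes on the 6 chromosome arms. It used names only and no measured value. The genes tko and bonsai also encode proteins of the small subunit but carry other symbols, so they fell outside the rule. Neither had an optimal promoter peak.

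The measurement was ChIP-seq of Dad, an inhibitory Smad that dampens the response of cells to the BMP ligand Dpp. Whole embryos of the strain Dad-GFP, aged 0 to 24 h and of both sexes, came from 1 transgenic line that carries GFP at the C terminus of Dad, and an antibody against GFP was used for the precipitation. The 3 biological replicates form 1 group, with no untreated or untagged group among the files analysed here, so no test between conditions was possible. The labels do not say which promoter drives the fusion, and a whole embryo mixes all tissues over its entire development. The files give 30000 regions per replicate, as many from the pooled reads, and 3392 optimal peaks, which the authors kept as reproducible. Each region has a signal, the authors' own value, with no read counts, so depth is unknown.

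The mitochondrial ribosome translates the few proteins encoded in mitochondrial DNA, which are core subunits of the respiratory chain. All its proteins are encoded in the nucleus, made in the cytoplasm and imported. Some have counterparts in the bacterial ribosome, and others occur in mitochondria only. Their genes are expressed in nearly all cells, and many lie back to back with an unrelated gene on the opposite strand, so that the starts of both genes flank 1 short intergenic stretch.

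A peak was counted at a gene when its summit lay within 500 bp of an annotated transcription start site (TSS) of that gene. The sequences around summits that carry the results below are printed first, from the RefSeq sequence of Release 6 (build dm6), each centred on a summit, in the direction of the mitoribosomal gene and 5′ to 3′. Windows that reached far into a 5′ UTR were shortened at that end. Capitals mark matches on either strand to any motif searched, which are spelled out with the motif results. The first set holds 3 of the 4 strongest peaks. They are at mRpS10 (chr3R:15229455-15229575, plus strand), mRpS23 (chr2L:13835389-13835509, minus strand) and mRpL23 (chr3L:2373529-2373626, minus strand). The only match in these 3 windows is the TATAAA string of mRpL23, on the opposite strand.
mRpS10: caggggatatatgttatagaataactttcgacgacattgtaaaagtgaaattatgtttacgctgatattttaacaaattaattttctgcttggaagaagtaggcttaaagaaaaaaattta
mRpS23: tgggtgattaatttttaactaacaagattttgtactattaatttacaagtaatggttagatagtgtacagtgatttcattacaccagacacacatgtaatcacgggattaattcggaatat
mRpL23: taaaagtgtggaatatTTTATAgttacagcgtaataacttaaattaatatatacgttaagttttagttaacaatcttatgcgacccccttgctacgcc

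The second set holds 5 peaks that were weaker than those, with signals of 156.8 to 253.9. All 5 still lay above the median of the promoter peaks at mitoribosomal genes, 122.1. They are at mRpL32 (chr3R:31252685-31252805, plus strand), mRpS2 (chr2L:4850571-4850670, minus strand), mRpL47 (chr3R:9515879-9515987, minus strand), mRpS11 (chr3R:17072676-17072761, plus strand) and mRpL4 (chr2L:16329121-16329241, minus strand). The mRpL47 window holds a pair of ATCGAT strings and the mRpL4 window holds 1, and the mRpL47 window also holds CAGCCCTG.
mRpL32: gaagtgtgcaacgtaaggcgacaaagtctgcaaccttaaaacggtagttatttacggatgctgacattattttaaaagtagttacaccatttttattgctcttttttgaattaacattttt
mRpS2: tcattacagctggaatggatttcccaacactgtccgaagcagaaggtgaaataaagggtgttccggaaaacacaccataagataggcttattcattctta
mRpL47: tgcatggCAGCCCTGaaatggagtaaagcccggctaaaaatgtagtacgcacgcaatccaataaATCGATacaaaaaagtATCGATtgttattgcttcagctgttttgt
mRpS11: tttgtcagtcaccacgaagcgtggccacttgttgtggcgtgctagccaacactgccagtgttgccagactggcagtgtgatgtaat
mRpL4: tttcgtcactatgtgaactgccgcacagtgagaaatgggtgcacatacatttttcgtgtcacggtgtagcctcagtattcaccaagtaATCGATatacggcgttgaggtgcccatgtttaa

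An optimal promoter peak lay at 25 of the 73 mitoribosomal protein genes (34.2%, Wilson 95% interval 24.4 to 45.7), against 2562 of all 13945 protein-coding genes (18.4%, interval 17.7 to 19). The intervals cover counting error only. The share was 1.86 times that of all coding genes. In the 3392 regions of highest signal of each replicate alone, 24, 22 and 23 of the 73 genes had a summit at a start in replicates 1, 2 and 3 (32.9%, 30.1% and 31.5%), against 18.3%, 17.4% and 17.8% of all coding genes. The ratio over replicates was 1.76 ± 0.0336 (SD, n = 3).

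The ranks of the 25 peaks were spread over the optimal list. Their signals ran over 82.63 to 952.3 with a median of 122.1, against a median of 128.5 over the coding genes with a promoter peak. By rank of signal, 6 of the 25 lay among optimal peaks 1 to 848, 7 among 849 to 1696, 6 among 1697 to 2544 and 6 among 2545 to 3392, against 714, 669, 620 and 559 of the 2562 coding genes with a promoter peak. The summit lay in intergenic sequence at 19 of the 25 genes, in a 5′ UTR at 3, in an intron at 2 and in coding sequence at 1, mRpL1. The 5′ UTRs were those of mRpL42 and the neighbours HtrA2 and Taz, and the introns those of mRpL23 and the neighbour AGO1. No such split over all coding promoter peaks is given here, so these counts describe the 25 genes only. No mitoribosomal protein gene had more than 1 optimal summit at its starts.

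**Figure D1:**
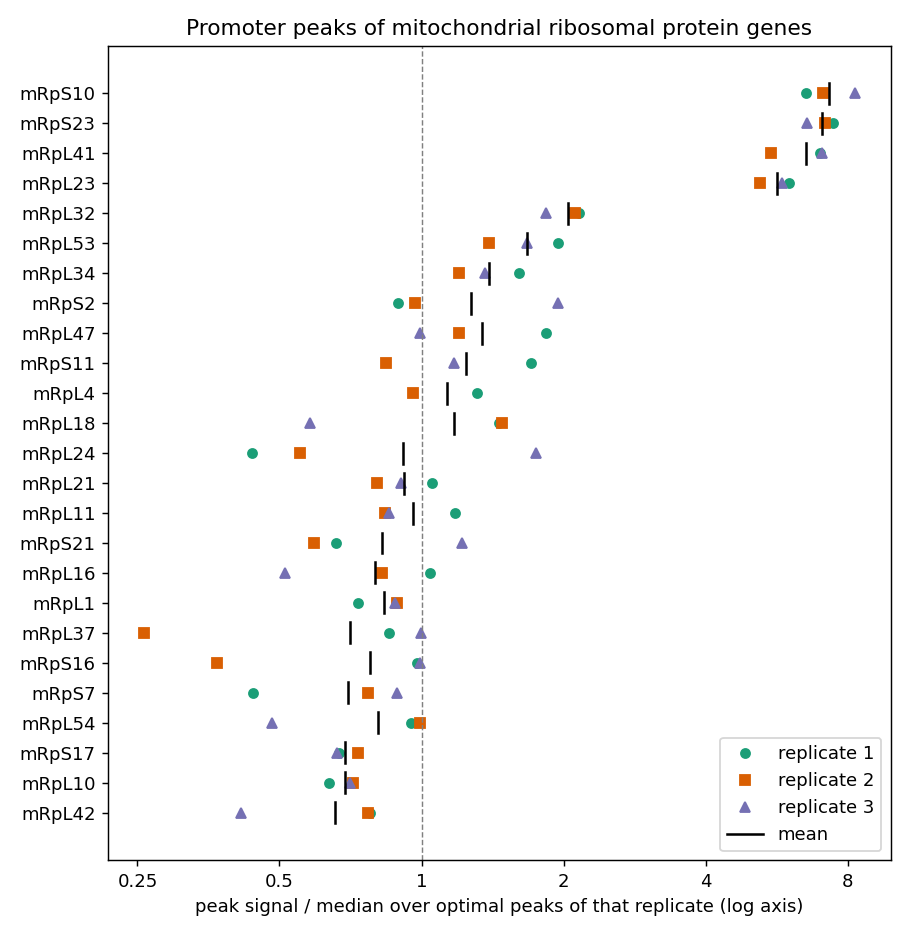
Signal of the 25 promoter peaks in each replicate, divided by that replicate's median over all optimal peaks (log axis, dashed line at 1), with the black tick at the mean of the replicates. Genes are ordered by optimal signal. The upper 4 genes lie at 5.21 to 8.29 in every replicate, apart from all others, and mRpL4 has no point for replicate 3.

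A group of 4 genes stood apart, with signals of 739.2 to 952.3 and ranks of 12 to 25 among the 3392 optimal peaks. Values below are the signal in replicates 1, 2 and 3 relative to the replicate's own median over the optimal peaks. The highest was at mRpS10, whose product belongs to the head of the small subunit and has a bacterial counterpart, with 6.54, 7.09 and 8.29 (7.30 ± 0.894, SD, n = 3). At mRpS23, a small-subunit protein found in mitochondria only, the values were 7.46, 7.17 and 6.57 (7.07 ± 0.456). At mRpL41, a large-subunit protein found in mitochondria only, they were 7.00, 5.51 and 7.06 (6.52 ± 0.876). At mRpL23, whose bacterial counterpart lies at the exit of the peptide tunnel, they were 6.02, 5.21 and 5.82 (5.68 ± 0.424). All 4 ranked between 8 and 31 in every replicate. The ranges of mRpS10, mRpS23 and mRpL41 overlap, and so do those of mRpL41 and mRpL23, while every value of mRpS10 and mRpS23 lay above every value of mRpL23. The 4 peaks are at 3R, 15229336 to 15229718 (mRpS10), 2L, 13835292 to 13835632 (mRpS23), 2R, 15217578 to 15217938 (mRpL41) and 3L, 2373445 to 2373780 (mRpL23), all on build dm6.

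The next gene, mRpL32, which encodes a large-subunit protein with a bacterial counterpart, had a signal of 253.9 and rank 394. Its relative signals were 2.16, 2.11 and 1.84, below the lowest value of any of the 4 genes above. At mRpL53, a mitochondria-only protein of the large subunit, they were 1.95, 1.39 and 1.67 (signal 210.6). At mRpL34 they were 1.61, 1.20 and 1.36 (signal 172.8). These 3 genes lay above the median optimal peak in all 3 replicates.

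Further down, replicates differed as much as genes did. At mRpS2 the relative signals were 0.890, 0.970 and 1.95 (signal 171.0). At mRpL47 they were 1.84, 1.20 and 0.993 (signal 166.0), and at mRpL18, whose bacterial counterpart binds 5S rRNA, 1.46, 1.48 and 0.580 (signal 148.5). Each of these genes had at least 1 replicate below the median and at least 1 well above it. At mRpL4, whose bacterial counterpart lines the peptide tunnel, they were 1.31 and 0.961 in replicates 1 and 2, and replicate 3 had no region (signal 156.8, n = 2). The 25 genes' median coefficient of variation between replicates was 26.1% (24 peaks seen in all 3), against 23.5% over 1796 promoter peaks of coding genes.

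The peak at mRpS11, a gene of the platform of the small subunit, had relative signals of 1.71, 0.840 and 1.17 (signal 158.9). Its start lies 2324 bp past the end of Dad itself on 3R. Extra copies of that stretch, if the transgene carries it, would add reads there, and whether they did was not tested. Without mRpS11, 24 genes had a peak.

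Among the 25 peaks, all 3 replicates had a matching region among their own top 3392 at 13 genes (52.0%, interval 33.5 to 70.0), against 58.7% of coding genes with a promoter peak. At 9 genes 2 replicates had one. At the remaining 3, mRpL10, mRpL24 and mRpS21, 1 replicate did. The peak at mRpL24 was uneven, at 0.437, 0.552 and 1.75, and that at mRpS21 was at 0.660, 0.591 and 1.22, so that in both genes replicate 3 was the only one above the median. The values at mRpL10 were even, at 0.638, 0.716 and 0.707. Its ranks were 3851, 3393 and 2987, so replicate 2 fell just outside the top 3392.

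Most of these peaks could not be assigned to the mitoribosomal gene alone. At 21 of the 25 genes (84.0%, interval 65.3 to 93.6) the summit also lay within 500 bp of the start of a coding gene running the opposite way, against 1403 of the 2562 coding genes with a promoter peak (54.8%). The start of the mitoribosomal gene was the nearest coding start to the summit at 14 of 25 (56.0%, 37.1 to 73.3), against 71.9% for all coding genes with a peak. Counting each peak only for its nearest coding start left 14 of the 73 genes (19.2%) with a peak, against 13.5% of all coding genes, a ratio of 1.42. No interval was computed for this share, so whether it differs from that of all coding genes was not tested. At 11 genes the neighbour's start was nearer.

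**Figure D2:**
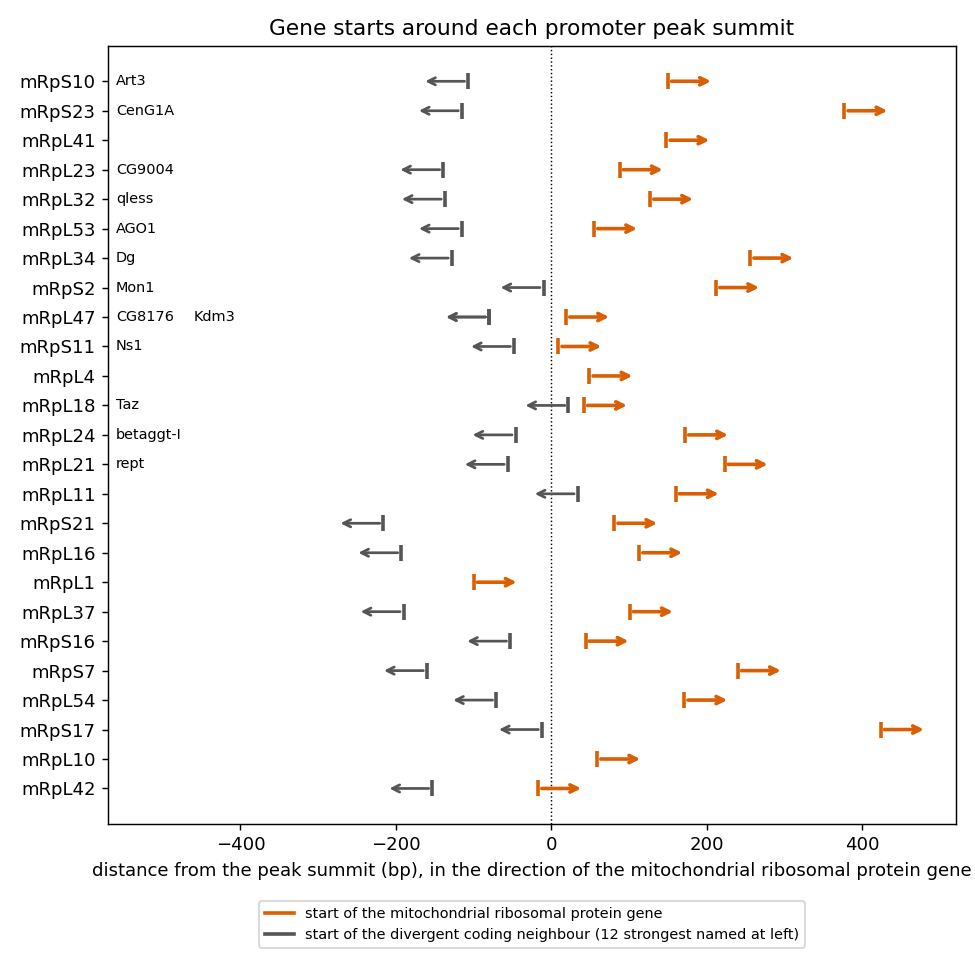
Starts of genes around each of the 25 summits (dotted line at 0), in bp along the direction of the mitoribosomal gene, with arrows in the direction of transcription. Genes are ordered by signal. The summit lies between the starts of both genes in most pairs, and at mRpS23, mRpS2 and mRpS17 it is nearer to the neighbour than to the mitoribosomal gene. Neighbours are named for the 12 strongest shared peaks, and CG33155, which shares the mRpL53 start, is not drawn. For mRpL23 an internal start is drawn, and its outermost start is not.

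The strongest pairs show the difference. At mRpS10 the summit lay 150 bp from its start and 107 bp from that of Art3, an arginine methyltransferase gene. At mRpS23 it lay 377 bp from its start and 115 bp from that of CenG1A, which encodes a GTPase-activating protein. At mRpL23 the order was the reverse, with 88 bp to its own start and 139 bp to CG9004. That start, at 2373501, is an internal one, as the gene reaches 2373704 on the minus strand. The summit, at 2373589, lay in an intron of mRpL23, downstream of its outermost start. The peak at mRpL41 had no other coding start within 500 bp, its own being at 148 bp. The start of CG8079, on the other strand, lay 762 bp from that of mRpL41.

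Among the other shared peaks, that of mRpL32 lay 127 bp from its start and 137 bp from qless, which acts in ubiquinone synthesis. That of mRpL53 lay 55 bp from a start it shares with CG33155 on the same strand, and 115 bp from AGO1, the Argonaute of the microRNA pathway. That of mRpL34 was nearer to Dg, dystroglycan, at 128 bp against 256 bp. That of mRpS2 lay 10 bp from the start of Mon1, an endosomal factor, and 212 bp from its own. That of mRpL47 lay 19 bp from its own start and 80 bp from those of CG8176 and Kdm3. That of mRpS11 lay 9 bp from its own and 48 bp from Ns1, a nucleostemin gene. Taz, tafazzin of cardiolipin remodelling, was 22 bp from the summit at mRpL18, whose own start was at 42 bp. The peak at mRpL21 lay 223 bp from its own start and 56 bp from rept, of chromatin remodelling complexes. At mRpL24 the distances were 172 bp to its own start and 46 bp to betaggt-I.

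The weaker shared peaks had neighbours of equally varied function, named here after their values were seen. mRpL11 faced HtrA2, which encodes a mitochondrial protease, with the summit 34 bp from HtrA2 and 160 bp from its own start. mRpS7 faced Cdk1, the mitotic kinase, at 160 bp against 240 bp to its own start. The peak at mRpL37 was uneven, with relative signals of 0.855, 0.258 and 0.998, and that of mRpS16, which faced cg, was similar at 0.977, 0.368 and 0.992. In both, replicate 2 was the low one. mRpL16 faced trr, a histone methyltransferase gene, at 193 bp against 113 bp. mRpS17 faced Nop60B, which encodes an rRNA pseudouridine synthase, at 12 bp against 424 bp, the longest distance of any of the 25 starts. The summit lay upstream of the mitoribosomal start at 23 of the 25 genes (92.0%), against 85.8% of coding genes with a peak, with a median position of -113 bp against -97 bp. For mRpL23 this refers to its internal start.

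Of the 25 genes with a peak, 24 had a coding neighbour head to head. A gene was called head-to-head when the start of a coding gene on the other strand lay up to 1000 bp upstream, or up to 200 bp inside, of a start, a definition chosen after the values were seen. This held for 58 of the 73 genes (79.5%), against 5070 of all coding genes (36.4%). Of the head-to-head mitoribosomal genes 24 had a promoter peak (41.4%, 29.6 to 54.2), against 32.8% of head-to-head coding genes (31.5 to 34.1). Of the 15 others 1 had one, mRpL10 (6.67%, 1.19 to 29.8), against 10.1% of coding genes without such a neighbour. In both arrangements the interval of the mitoribosomal share includes the share of all coding genes. A start flanked by a neighbour's start gives a peak at either one a chance to be counted, and the part of this in the higher share was not tested.

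The genes were also short, with a median length of 909 bp against 2166 bp over all coding genes. Among genes up to 2000 bp long, 25 of 70 mitoribosomal genes had a peak (35.7%, 25.5 to 47.4), against 12.3% of all coding genes of that length. Among those that were both short and head-to-head, 24 of 57 did (42.1%, 30.2 to 55.0), against 598 of 2218 (27.0%), a share below that interval. For the short genes without such a neighbour the numbers were 1 of 13 (7.69%) and 205 of 4302 (4.77%). Starts of head-to-head pairs lay a median of 260.5 bp apart where the mitoribosomal gene had a peak (24 genes) and 309.0 bp where it had none (34 genes).

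**Figure D3:**
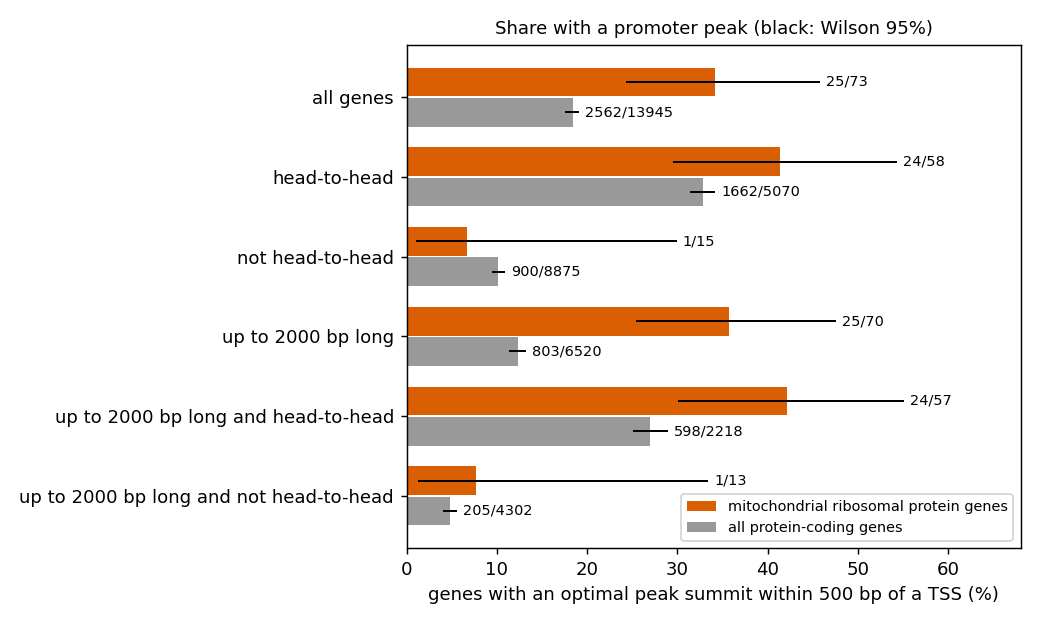
Percentage of mitochondrial ribosomal protein genes (orange) and of all protein-coding genes (grey) with an optimal promoter peak, by arrangement of the start and gene length, with Wilson 95% intervals in black and counts beside the bars. Both sets have larger shares where the start is head-to-head.

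Genes of both symbols were represented. Of the mRpL genes 17 of 47 had a promoter peak (36.2%, 24.0 to 50.5), and of the mRpS genes 8 of 26 (30.8%, 16.5 to 50). The share of all coding genes, 18.4%, lies below the mRpL interval and inside the mRpS interval. Proteins were then grouped by whether their family has a bacterial counterpart, judged from general knowledge of human family names and after the values were seen. The grouping puts mRpS30 in the large subunit despite its symbol. It counts mRpS18A, mRpS18B and mRpS18C alike, as small-subunit proteins with a counterpart, and single members may be placed otherwise under the human names. None of these mRpS18 genes had an optimal promoter peak. A peak was found at 19 of 46 genes with a counterpart (41.3%, 28.3 to 55.7) and at 6 of 27 genes for mitochondria-only proteins (22.2%, 10.6 to 40.8). The intervals overlap. For the small subunit the numbers were 7 of 16 and 1 of 9, the one being mRpS23, and for the large subunit 12 of 30 and 5 of 18, namely mRpL37, mRpL41, mRpL42, mRpL53 and mRpL54.

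Counts by chromosome arm were uneven. A peak was found at 6 of 12 genes on 2L (interval 25.4 to 74.6), against 17.5% of coding genes there, and at 8 of 12 on 2R (39.1 to 86.2), against 17.9%. On 3R it was 8 of 21 (38.1%, 20.8 to 59.1), against 20.4%. On 3L it was 2 of 17 (11.8%, 3.29 to 34.3), against 18.9%, and on X 1 of 11 (9.09%, 1.62 to 37.7), mRpL16, against 16.8%. Head-to-head genes made up 10 of 12 on 2L, all 12 on 2R, 12 of 17 on 3L, 15 of 21 on 3R and 9 of 11 on X. The intervals of 2L, 2R and 3R lie above the share of all coding genes on the arm, and those of 3L and X include it. The arms were examined without a test.

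Most genes outside the optimal list still had a weak region. Of the 48 without an optimal promoter peak, 36 had one of the 30000 pooled regions at a start, with signals of 22.68 to 77.67 and a median of 44.31, against a median of 33.28 over all pooled regions. In all, 61 of the 73 genes had a pooled region (83.6%, 73.4 to 90.3), against 55.8% of coding genes. Only 3 genes had no region in the pooled list or any replicate (4.11%, 1.41 to 11.4), namely mRpL38, mRpL40 and mRpS34, against 30.5% of coding genes. Without a pooled region but with one in at least 1 replicate were mRpL36, mRpL39, mRpL45, mRpL48, mRpS5, mRpS6, mRpS25, mRpS28 and mRpS33. A region in these lists of fixed length can be background.

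The edge of the optimal list ran through a continuous range of signals. The weakest genes inside were mRpL42 (82.63), mRpL10 (89.86), mRpS17 (91.37) and mRpL54 (92.31). The highest pooled signals outside were at mRpS26 (77.67), mRpL51 (76.08), mRpL20 (75.79) and mRpL43 (68.91). mRpS26 ranked 2799, 7169 and 1982 in replicates 1, 2 and 3, and so lay within the top 3392 in 2 of them. mRpL51 ranked 5393, 1402 and 7323. Of the 48 genes, 7 were within the top 3392 of at least 1 replicate (14.6%) and 2 of at least 2 (4.17%), against 9.05% and 1.46% of the 11383 coding genes without an optimal promoter peak. Of all 73 genes, 32 had a top region in at least 1 replicate (43.8%) and 13 in all 3 (17.8%), against 25.6% and 10.9% of all coding genes.

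**Figure D4:**
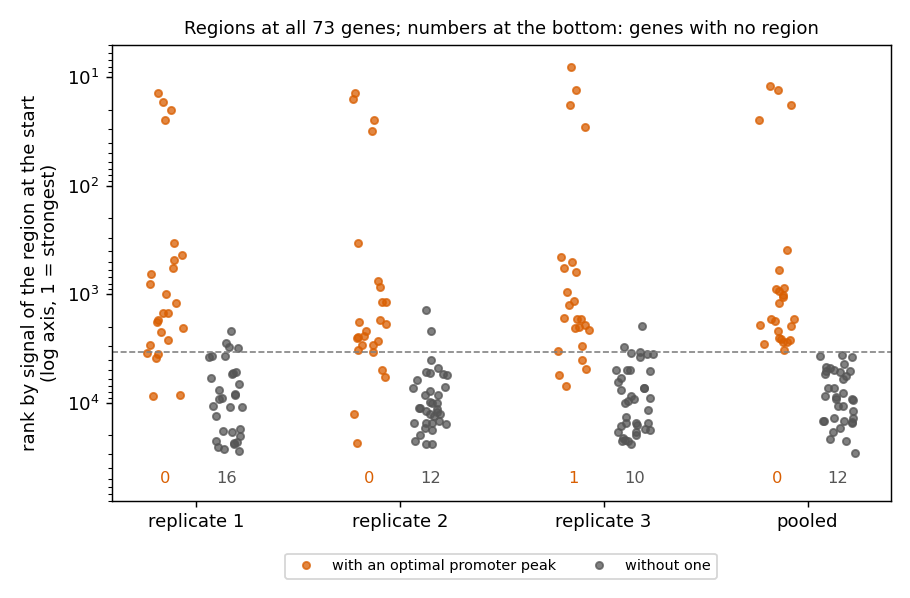
Rank by signal, on an inverted log axis, of the strongest region at a start of each mitoribosomal protein gene in each replicate and the pooled list, for the 25 genes with an optimal promoter peak (orange) and the 48 without (grey). The dashed line is at rank 3392, and the numbers at the bottom count genes with no region. The same gap separates 4 genes from the rest in every list.

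Motif strings were searched on both strands in promoters, 250 bp before to 50 bp after the start, and within 100 bp of summits. The DNA replication-related element TATCGATA, bound by the factor DREF at housekeeping promoters, was in 15 of the 73 promoters (20.5%), against 9.36% of all coding promoters. Among genes with a promoter peak the shares were 20% and 16.3%. Its inner part ATCGAT, added after the values were seen and contained in every TATCGATA, was in 37.0% against 23.3%. Around summits TATCGATA was in 4 of 25 peaks, at mRpL4, mRpL10, mRpL16 and mRpS17 (16.0%), against 11.6% of 1812 coding promoter peaks. Of other core promoter strings, GGTCACACT was in 11% of the promoters against 6.05%, CAGCNCTG in 13.7% against 7.31%, CATCNCTA in 11% against 6.42%, GTATTTTT in 12.3% against 7.39%, GTATATTT in 4.11% against 5.69% and TATAAA in 46.6% against 45.8%. GAGAGAG was in 1.37% against 5.87%. Among genes with a promoter peak the order was the reverse for GGTCACACT, at 8% against 8.86%, and for CAGCNCTG, at 12% against 13.5%.

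Strings tied to the BMP pathway gave small numbers. GCCGNCG, of the type bound by Mad, the Smad that transduces the Dpp signal, was within 100 bp of the summit at 4 of 25 genes, mRpL1, mRpL10, mRpL54 and mRpS17 (16.0%), against 5.30% of coding promoter peaks. Within 50 bp of summits it was at 1 of 25 (4.00%) against 2.92%, and within 250 bp in 24.0% against 19.4%. In the promoters it was in 8.22% against 10.1%. GGCGCCA, of the type bound by Brk, was at none of the 25 summits, against 3.20%, and in 2.74% of promoters against 3.05%. GTCTAGAC was at none of the 25 summits or 73 promoters, and in 0.122% of all coding promoters.

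CACGTG, the E-box, was within 100 bp of 3 of the 25 summits, at mRpL16, mRpS11 and mRpS17 (12%), against 3.42%. In the promoters it was in 6.85% against 4.20%. CCGGAAG was in none of the 73 promoters and 1.09% of all, and GCGCATGC in 1.37% and 1.05%. Around the 4 strongest summits none of TATCGATA, CACGTG or GCCGNCG was found, and the matches there were TATAAA at mRpL23 and GTATTTTT and ATCGAT at mRpL41. GC content within 100 bp of the summit had a median of 35.8%, against 38.8% over coding promoter peaks. A match describes letters only.

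**Figure D5:**
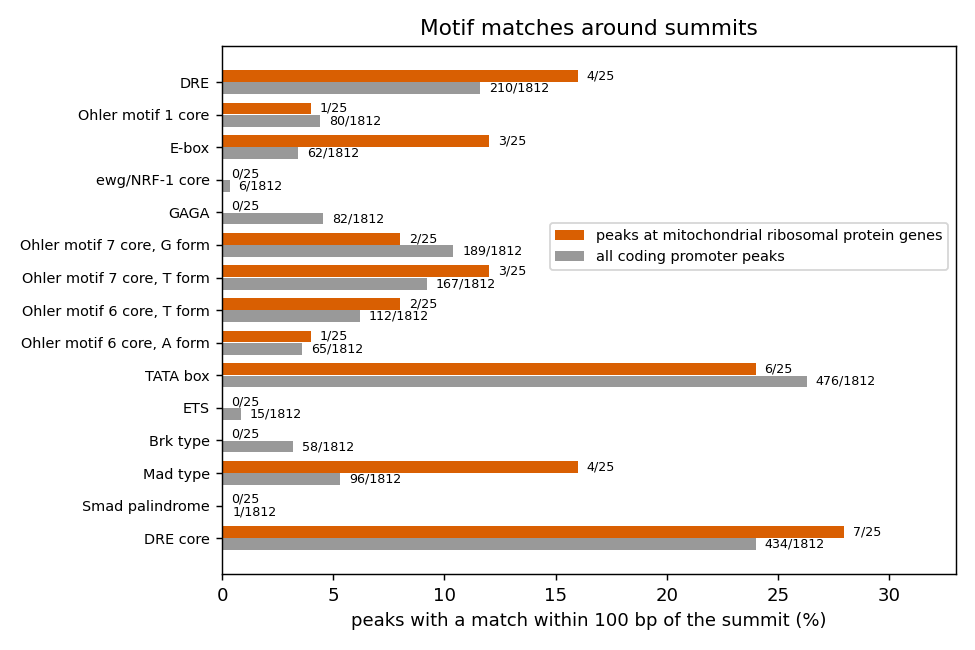
Percentage of promoter peaks with a match to each motif within 100 bp of the summit, for the 25 peaks at mitochondrial ribosomal protein genes (orange) and the 1812 coding promoter peaks (grey), with counts beside the bars. Most rows rest on 0 to 4 of the 25 peaks.

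Other genes of mitochondrial gene expression were counted in the same way, with the same 18.4% of all coding genes beside them. Of 15 mitochondrial tRNA synthetase genes, which charge tRNAs for this ribosome, 2 had one (13.3%, 3.74 to 37.9), ArgRS-m (118.7) and LeuRS-m (91.81). Of 9 translation factor genes 1 did (11.1%, 1.99 to 43.5), mEFTu2 (90.34), an elongation factor. Of 17 genes for mitochondrial DNA and RNA, 5 did (29.4%, 13.3 to 53.1). The strongest were PNPase, an RNA-degrading enzyme, with a signal of 1179 and rank 7, SLIRP2 (598.1) and mtSSB, which binds single-stranded DNA (155.9). Of 15 import genes 2 did (13.3%, 3.74 to 37.9), Tom7 (152.7) and Tim10 (100.4).

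The nuclear genes of respiratory chain subunits had peaks at 17 of 88 genes (19.3%, 12.4 to 28.8), led by ND-ASHI (272.6), ND-MWFE (231.9) and COX5A (210.9). The genes of the cytoplasmic ribosome had them at 66 of 92 (71.7%, 61.8 to 79.9), led by RpL7 (628.1), RpS27 (613.5) and RpL23A (528.7). The mitoribosomal share of 34.2% lay below that of the cytoplasmic ribosome, with intervals that do not overlap, and above that of the respiratory chain, with intervals that do. In signal, by contrast, mRpS10, mRpS23, mRpL41 and mRpL23 each exceeded RpL7, the strongest of the cytoplasmic ribosomal genes. Of these mitoribosomal peaks only that at mRpL41 was not shared with a divergent gene within 500 bp. Those at mRpS10 and mRpS23 lay nearer the neighbour's start.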

How the data were processed

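The labels describe 3 biological replicates of 1 group, numbered as the labels do. The authors called 30000 regions on every replicate and on the pool of all 3, and an optimal list came from these, per the file listings. Per the labels, regions are given on builds dm6 and dm3, and dm6 alone was used. Which aligner, peak caller and reproducibility threshold were used is not given in the sources used here. A region's deposited signal is the authors' value and is not scaled between libraries, so it served for ranks within a list and, divided by a replicate's own median across optimal peaks, for replicates. The deposited −log10 q values were not used for ranking. The deposited summit position lay past the region end in 3 optimal peaks, and the last base was then taken. Depth is unknown, and Wilson intervals cover counting error only.

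Summits were joined to starts of Ensembl release 115 (BDGP6.54) with Python 3.11.15 and NumPy 2.4.6, and figures were drawn with matplotlib 3.10.9. Regions matched by at least 1 bp. Summit assignment and motif search were tested on simulated data. No test was run, because there is 1 group. Of the listed older symbols, ico was matched to mEFG1, while mEFG2, mtRF1 and tam had no match. Named genes are the 12 with the strongest promoter peaks, those nearest the edge of the optimal list on either side, those lacking pooled regions, those with few supporting replicates and the 3 strongest of each other list. Neighbours of the 12 strongest shared peaks are named. The genes, lists and groupings were chosen with earlier results of these data known. Alternatives were other windows, lists, overlap and assignment rules, scalings and motif windows, and leaving out each replicate.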

Additional observations from a re-analysis of the deposited data

How the results depend on the processing

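The ratio of the mitoribosomal share to that of all coding genes was above 1 under every alternative run, and no interval was computed for any ratio. Against 1.86, it was 1.97 with a window of 250 bp, 1.63 with 1000 bp, 2.07 with outermost starts only, 1.74 when any base of a peak counted and 1.42 when only the nearest coding start counted. It was 1.80 both for the stronger 1 in 2 optimal peaks and for 1.5 times as many pooled regions, 1.79, 1.73 and 1.77 for the top regions of replicates 1, 2 and 3, and 1.62 to 2.04 without 1 replicate. Over all 73 genes, 13 had a peak among the stronger 1 in 2, 14 under the nearest start, and 16 to 19 without 1 replicate, where only regions that the other 2 shared were counted and genes outside the 25 could enter. Those shared with a divergent gene, 21 as reported, numbered 18 of 22 at a 250 bp window and 24 of 25 at 1000 bp. They numbered 11 among the stronger 1 in 2 and 14 to 17 without 1 replicate. No share over all coding genes was set beside these alternative counts. With all regions of each replicate in place of its top regions, support by all 3 rose to 24 of 25 peaks by construction. The median relative signal was 0.759 when scaled by the mean over the optimal peaks and 0.978 when scaled by their median. TATCGATA was at 1 summit at 50 bp (4.00%, against 6.73% of coding promoter peaks), and at 250 bp GGTCACACT was at 4 (16.0% against 9.22%) and CACGTG at 7 (28.0% against 8.89%). Head-to-head starts within 500 bp, an alternative chosen after seeing the data, gave 53 genes, 22 with a peak (41.5%), against 37.1% of 3843 such coding genes. No paired analysis was possible because all replicates belong to 1 group. Unknown depth and the absence of a control group here limit what the signal shows.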
